A study of Mus musculus with 12 samples.

Results

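The small leucine-rich proteoglycans are secreted proteins built around a run of leucine-rich repeats, most of which carry chondroitin, dermatan or keratan sulfate chains. Of the 54232 genes in the count table, 10 were taken by name as this family, namely Dcn, Bgn, Aspn, Fmod, Lum, Prelp, Omd, Kera, Ogn and Podn. They were measured in 12 subcutaneous tumors grown in nude mice from SVR cells, a mouse endothelial line transformed with oncogenic Ras that serves as a model of angiosarcoma, the malignancy of blood vessel endothelium (line strain C57BL/6 per the labels). Per the labels, daily gavage began on day 3 to 7 and ended when the tumor ulcerated or passed 1 cm. The study also ran an experiment in which all tumors were taken at one time, and which experiment supplied these tumors was not given in the sources used here. Time on treatment may therefore differ between groups. Control mice received vehicle, and 3 tumors were sequenced from each of the control, trametinib (1 mg/kg, a MEK inhibitor), cediranib (3 mg/kg, a VEGF receptor inhibitor) and combination (both drugs at these doses) groups. The model is 1 cell line, and RNA came from whole tumor lysates of partly degraded RNA captured with exome probes, so that tumor, stroma and skin, all of the mouse, were read together. In such bulk samples fewer cells of a type and less RNA per cell cannot be told apart.

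Members of this family sit on collagen fibrils and set fibril thickness and spacing. Several of them also bind growth factors, among them transforming growth factor beta, and decorin is known to bind and restrain receptor tyrosine kinases. In skin and in tumors they are made mainly by fibroblasts, and several are abundant in tendon, cartilage, bone or cornea. By protein and gene structure Dcn (decorin), Bgn (biglycan) and Aspn (asporin) form class I, Fmod (fibromodulin), Lum (lumican), Prelp, Omd (osteomodulin) and Kera (keratocan) class II, and Ogn (osteoglycin) class III, while Podn (podocan) belongs to a separate class.

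Libraries held 9478865 to 11666094 counts, so that 3 counts, the limit that a count of 0 allows, corresponded to 0.251 to 0.349 CPM, the count scaled to the size of the library. CPM were normalized by TMM, and differences are given as log2 fold changes with their standard error (SE) from edgeR's quasi-likelihood test over 12897 genes. A gene was called at a false discovery rate (FDR) below 0.05 and a log2 fold change of at least 1.5 in size, the study's own threshold. Of the 10 members 9 were tested. Kera had 0 counts in all 12 tumors, which allows no more than the above limit in each. The filter on low counts needed 3 tumors above a cutoff of 0.970 CPM, and Lum, Ogn and Omd had 5, 7 and 5 of 12. For Lum and Ogn the trametinib tumors were the only group with all 3 above it. Outside that group Ogn had 2 control and 2 combination tumors above the cutoff. Lum had 1 and 1, so that it passed only through the trametinib tumors.

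By this rule, Ogn and Prelp were higher after trametinib than in control, Ogn was lower after the combination than after trametinib, Prelp was higher after the combination than in control or after cediranib, and Aspn was lower after the combination than in control. The start regions of these 3 genes are shown because these are the members whose RNA changed, and for Ogn and Aspn because they share a cluster and a TATA-type motif. The RefSeq table (GRCm38.p6) held a start window of 300 bases (250 before and 50 after the start) for 8 of the 10 members, not for Dcn and Lum. The bases before the transcript start are given 5′ to 3′ on the gene's strand, from chr13:49607765-49608014 (plus strand) for Ogn, chr1:133921415-133921651 (minus strand) for Prelp and chr13:49544193-49544442 (plus strand) for Aspn. Capitals mark TATAAA on either strand, where TTTATA is the same motif read from the other strand.
Ogn: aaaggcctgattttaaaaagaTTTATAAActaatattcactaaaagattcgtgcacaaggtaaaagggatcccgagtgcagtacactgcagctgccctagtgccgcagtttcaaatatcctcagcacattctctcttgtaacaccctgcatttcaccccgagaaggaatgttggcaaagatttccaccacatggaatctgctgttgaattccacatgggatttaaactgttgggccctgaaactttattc
Prelp: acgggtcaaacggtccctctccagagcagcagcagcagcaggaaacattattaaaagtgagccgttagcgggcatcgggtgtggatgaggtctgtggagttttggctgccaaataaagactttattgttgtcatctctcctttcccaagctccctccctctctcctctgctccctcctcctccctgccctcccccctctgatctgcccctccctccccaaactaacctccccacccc
Aspn: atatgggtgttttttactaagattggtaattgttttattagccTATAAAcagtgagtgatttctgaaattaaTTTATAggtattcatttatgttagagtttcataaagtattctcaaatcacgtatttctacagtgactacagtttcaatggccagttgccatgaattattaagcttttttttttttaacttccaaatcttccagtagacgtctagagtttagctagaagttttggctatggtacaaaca
TATAAA was found in the windows of Ogn and Aspn, with first bases at positions -207 and -178 from the start in Aspn and at -227 and -229, on opposite strands and overlapping, in Ogn. It was present in 13.6% of all 32817 windows. The AP-1 motif TGANTCA, present in 7.81% of windows, the ETS motif CCGGAAG, in 8.86%, and the CArG box, in 1.63%, were not found in a member's window on either strand. GGGCGG, the GC box, was found in Bgn and Podn and in 35.6% of all windows. These matches describe letters and not binding.

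Bgn was the most abundant member in every tumor. Per kilobase of exon, its mean level over the 12 tumors was 26.7 CPM/kb, which was 59.8% of the family's sum. Fmod followed with 7.29 CPM/kb (16.3%), Aspn with 4.24 (9.48%) and Prelp with 2.04 (4.58%). Dcn (1.20 CPM/kb), Ogn (1.17), Podn (0.928), Omd (0.567) and Lum (0.514) were each below 3% of the sum. In control tumors Bgn was at 33.4 ± 24.9 CPM/kb (mean ± SD, n = 3), and the next in order, Aspn (5.69 ± 3.52) and Fmod (4.02 ± 2.33), differed from each other by less than 1 SD. Below them and apart from Fmod by more than 1 SD came Podn (1.32 ± 1.06), Prelp (0.545 ± 0.451), Dcn (0.521 ± 0.485), Ogn (0.496 ± 0.209), Lum (0.379 ± 0.390) and Omd (0.354 ± 0.316), in which each differed from the next by less than the SD of the higher one. Tumors differed widely in every member, from 11.9-fold between the lowest and the highest tumor for Podn to 282-fold for Fmod.

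**Figure D1:**
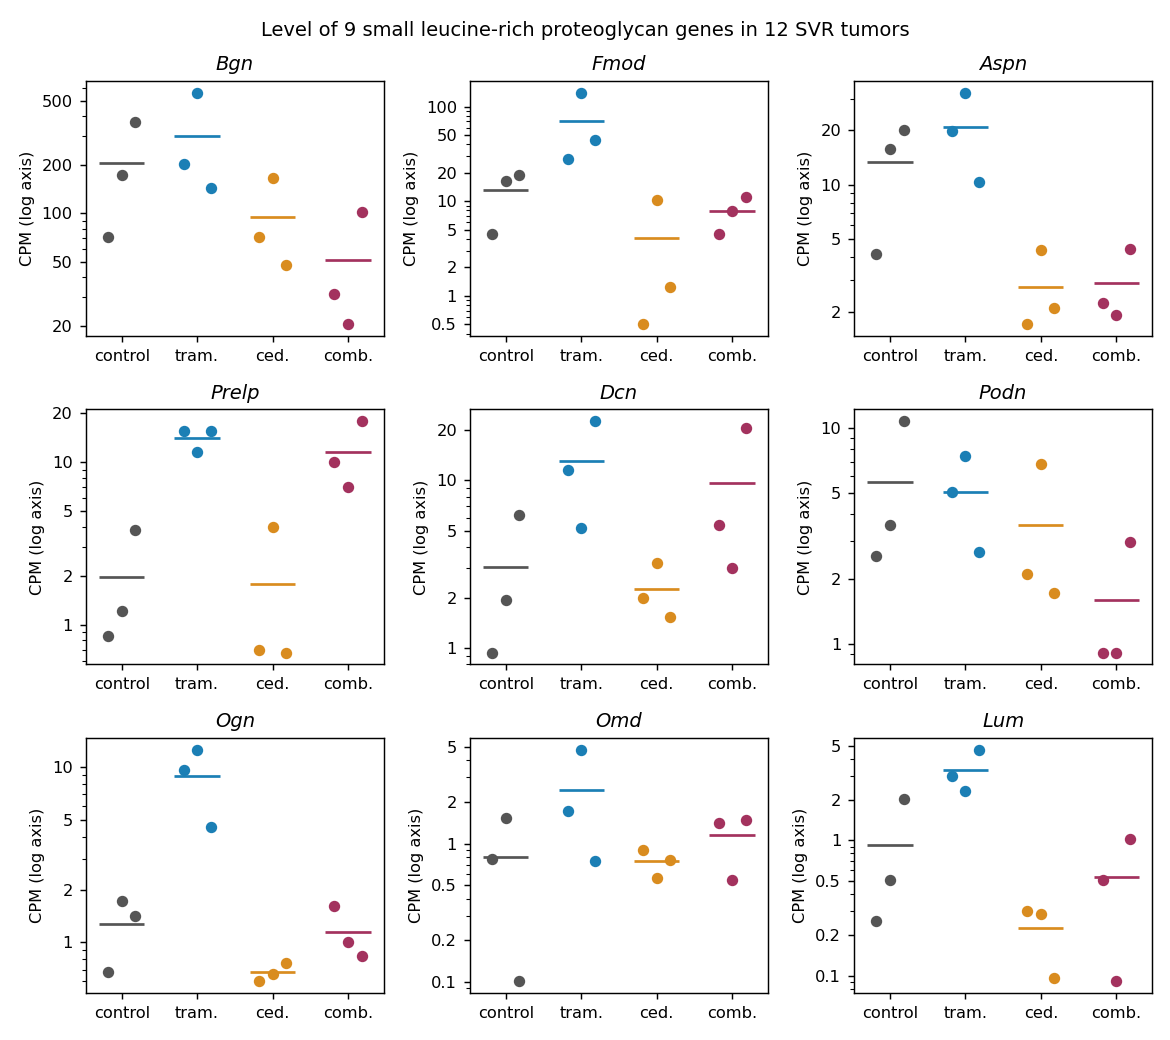
Level of the 9 detected members in each of the 12 tumors, in CPM on a log axis of its own for each gene, by treatment group; points are tumors and bars are group means (n = 3). The 3 trametinib tumors of Ogn sit between 4.52 and 12.6 CPM, above all 9 other tumors, whereas for Prelp both trametinib and combination tumors sit between 6.99 and 17.9 CPM, above all control and cediranib tumors.

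Ogn codes for osteoglycin, also called mimecan, which lies on collagen fibrils and was first isolated from bone. Its level was 0.681, 1.72 and 1.41 CPM in the control tumors and 9.62, 12.6 and 4.52 CPM in the trametinib tumors. It was 0.599, 0.662 and 0.766 CPM after cediranib and 1.62, 0.999 and 0.835 CPM after the combination. The trametinib tumors thus did not overlap with any other group, while control and combination tumors overlapped. Ogn was higher after trametinib than in control by a log2 fold change of 2.80 (SE 0.44, edgeR FDR 0.00301) and lower after the combination than after trametinib, at -2.94 (SE 0.44, FDR 0.0196). The combination differed from control by -0.14 (SE 0.47, FDR 0.885). The call against control held when any 1 of the 6 tumors was left out (FDR 0.00195 to 0.0134), but the call between combination and trametinib was lost without trametinib 1, trametinib 2, combination 2 or combination 3 (FDR up to 0.0801).

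Prelp codes for a proteoglycan with a basic, arginine- and proline-rich end that binds heparan sulfate and collagen and links basement membrane to connective tissue. It measured 0.852, 1.22 and 3.84 CPM in control tumors and 15.5, 11.5 and 15.5 CPM after trametinib. After cediranib it was 0.699, 3.97 and 0.670 CPM, and after the combination 10.0, 6.99 and 17.9 CPM. All 6 tumors that received trametinib, alone or with cediranib, were above all 6 that did not. Prelp was higher after trametinib (log2 fold change 2.86, SE 0.67, edgeR FDR 0.0268) and after the combination (2.57, SE 0.67, FDR 0.0326) than in control, and higher after the combination than after cediranib (2.69, SE 0.67, FDR 0.0332). Combination and trametinib tumors differed by -0.29 (SE 0.59, FDR 0.848). With single tumors left out these FDRs ran up to 0.0987, 0.110 and 0.106. The trametinib call was lost without control 1, control 2, trametinib 1 or trametinib 3. The combination call against control was lost without control 1, control 2, combination 1 or combination 3, and that against cediranib without cediranib 1, cediranib 3, combination 1 or combination 3. The antisense gene Gm15851, named after its values were seen, overlaps 350 of the 3615 exon bases of Prelp (9.68%) on the opposite strand. It had 455 counts over all tumors against 940 for Prelp, and the 2 genes followed each other over the 12 tumors (r = 0.98). Because the strand setting of the counting was not given in the sources used here, reads over these bases cannot be assigned to 1 of them.

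Aspn codes for asporin, a class I protein without a glycosaminoglycan chain that binds collagen and transforming growth factor beta. It was measured at 4.17, 15.8 and 20.2 CPM in control tumors and at 20.0, 32.4 and 10.4 CPM after trametinib. The level was 1.70, 4.35 and 2.11 CPM after cediranib and 2.22, 1.91 and 4.46 CPM after the combination. The 6 tumors that received cediranib, alone or with trametinib, lay below all trametinib tumors, and only the lowest control tumor fell into their range. Against control, Aspn fell after the combination (log2 fold change -2.22, SE 0.61, edgeR FDR 0.0395). This call held without control 1 (FDR 0.0124) and was lost without control 2, control 3, combination 1, combination 2 or combination 3 (FDR up to 0.139). The difference was -2.29 (SE 0.61) for cediranib against control, with an unadjusted p of 0.00272 and an FDR of 0.999. Between combination and trametinib it was -2.86 (SE 0.61, FDR 0.0517), not called.

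Bgn, which codes for biglycan, a class I member with a pair of chain attachment sites that can also act as a ligand of Toll-like receptors, was measured at 70.8, 172 and 369 CPM in control tumors. It was at 201, 560 and 144 CPM after trametinib, 71.6, 166 and 48.0 CPM after cediranib and 31.4, 20.4 and 102 CPM after the combination. Combination tumors did not overlap with trametinib tumors but did with both other groups. No comparison of Bgn passed the test, with log2 fold changes of -2.55 (SE 0.77, edgeR FDR 0.122) for combination against trametinib and -1.99 (SE 0.76, FDR 0.117) for combination against control. Dcn, coding for decorin, the class I member with a single chain, was at 0.937, 1.93 and 6.26 CPM in control, 11.5, 5.24 and 22.6 CPM after trametinib, 2.00, 3.22 and 1.53 CPM after cediranib and 5.45, 3.00 and 20.6 CPM after the combination. Every pair of groups overlapped except that the ranges of cediranib and trametinib did not. Its differences were 2.13 (SE 0.80, FDR 0.152) for trametinib and 1.68 (SE 0.79, FDR 0.196) for the combination against control. With single tumors left out these ran from 1.48 to 3.21 and from 0.473 to 2.77, never called.

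Fmod codes for fibromodulin, a keratan sulfate protein that binds collagen I and steers its crosslinking. It was at 4.51, 16.3 and 19.0 CPM in control tumors, 28.1, 141 and 44.4 CPM after trametinib, 0.500, 10.4 and 1.24 CPM after cediranib and 4.54, 7.99 and 11.2 CPM after the combination. The trametinib tumors were above those of every other group. Even so, neither the difference from control (2.42, SE 0.86, edgeR FDR 0.130) nor that between combination and trametinib (-3.16, SE 0.90, FDR 0.0985) passed the test. Lum codes for lumican, which keeps collagen fibrils thin and evenly spaced in the cornea and skin. It was at 0.255, 0.507 and 2.02 CPM in control, 3.00, 2.33 and 4.69 CPM after trametinib, 0.300, 0.284 and 0.0957 CPM after cediranib and 0.505, 0.0908 and 1.02 CPM after the combination. As with Fmod, the trametinib tumors stood above the rest, with no call (1.86, SE 0.73, FDR 0.169 against control and -2.61, SE 0.77, FDR 0.111 for combination against trametinib). In cediranib tumors Lum was at 7 counts over the group, close to the limit of detection.

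Omd, coding for osteomodulin, a protein of mineralizing tissue, was at 0.766, 1.52 and 0.101 CPM in control, 1.72, 4.77 and 0.753 CPM after trametinib, 0.899, 0.567 and 0.766 CPM after cediranib and 1.41, 0.545 and 1.49 CPM after the combination. All groups of Omd overlapped. Podn codes for podocan, which is known as a brake on smooth muscle cell growth in arteries. Podn was at 2.55, 3.55 and 10.8 CPM in control and 5.08, 7.45 and 2.68 CPM after trametinib. It was at 2.10, 6.81 and 1.72 CPM after cediranib and 0.909, 0.908 and 2.97 CPM after the combination. The lowest 2 combination tumors were below all others, but the groups overlapped, and the difference from control was -1.80 (SE 0.72, edgeR FDR 0.129).

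Across the family, 2 of 9 members tested were called higher after trametinib than in control and 0 lower, where 0.977% of all genes tested were called in the upward and 1.43% in the downward direction. Over the 9 members the median was 1.86, beside 0.01 for all genes, with 8 above 0 and Podn below it (-0.16, SE 0.67). Of the members 4 (Ogn, Prelp, Fmod and Lum) did not overlap between the groups and were higher. This state held 12.9% of all genes, as did the lower one. Lum passed the low-count filter only with its trametinib tumors, so that its estimate and its place among these 4 are not independent of the filter. For cediranib against control 0 of 9 were called, and 0% of all genes. All 9 estimates were below 0 with a median of -0.89, but 1 had an unadjusted p under 0.05, compared with 557 of all genes (4.32%). Other tools called 1 member (Aspn, DESeq2) in this comparison, where DESeq2 called 10 of all genes. None of the members was free of overlap between control and cediranib tumors, while 4.31% of all genes were apart and higher and 3.45% apart and lower.

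For combination against control 1 member was called higher (Prelp) and 1 lower (Aspn), where 1.91% and 1.71% of all genes were called. Prelp alone did not overlap and was higher (15.6% of all genes were apart and higher and 15.7% apart and lower), and the median was -0.73 with 3 above 0 and 6 below. For combination against trametinib 1 was called lower (Ogn), where 0.14% of all genes were called lower and 0.535% higher. All 9 estimates were below 0, with a median of -2.55 beside -0.01 for all genes. Of the members 5 (Ogn, Aspn, Fmod, Lum and Bgn) were apart and lower, as were 11.8% of all genes (12.4% apart and higher). The limit on Lum holds here as well, since its trametinib tumors carried it through the filter. The comparisons share the trametinib or control tumors, so that their signs are not independent. For combination against cediranib 1 was called higher (Prelp), where 1.29% of all genes were called higher and 1.16% lower, and 2 (Prelp and Ogn) were apart and higher, as were 14.1% of all genes (14.3% apart and lower). The median was 0.75.

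The interaction contrast asked whether the effect of cediranib was the same with and without trametinib. It called 0 members by edgeR, as it did for 0% of all genes. All 9 estimates were below 0 with a median of -0.95, and 1 (Ogn, -2.05, SE 0.67, unadjusted p 0.00974, FDR 0.654) had an unadjusted p under 0.05, compared with 909 of all genes (7.05%). A difference between the effects of cediranib in the presence and absence of trametinib was therefore not detectable for any member with 3 tumors a group.

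**Figure D2:**
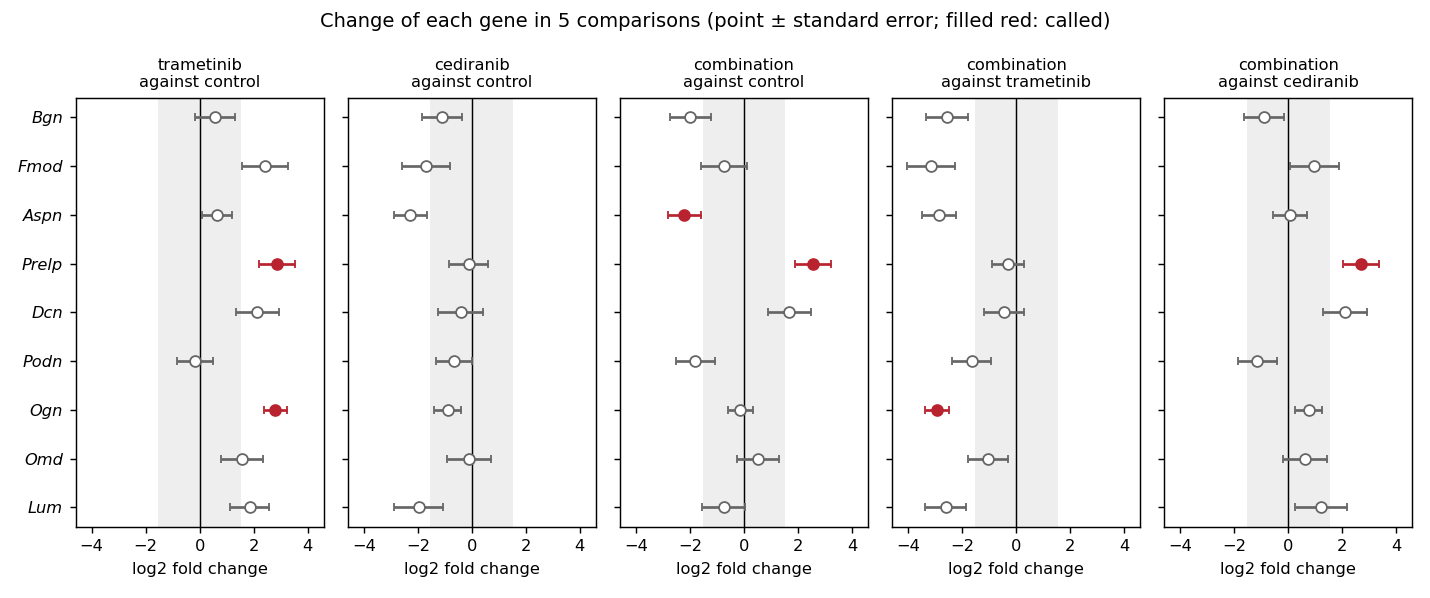
Log2 fold change of the 9 tested members in 5 comparisons, with bars of 1 SE from edgeR's quasi-likelihood fit over all 12 tumors and filled points for calls (FDR below 0.05 and at least 1.5 in size). Ogn at 2.80 and Prelp at 2.86 are filled for trametinib against control, and Prelp stays near 0 for combination against trametinib (-0.29), where Ogn lies at -2.94.

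The share of each member in the family's counts also differed between tumors. Bgn made up 82.8%, 80.1% and 85.3% of the family's counts in control tumors and 89.1%, 84.5% and 84.4% after cediranib. It made up 68.0%, 72.1% and 57.7% after trametinib and 54.1%, 47.7% and 62.8% after the combination. All tumors with trametinib were thus below all tumors without it. The family's sum itself was 85.5, 214 and 433 CPM in control, 296, 777 and 249 CPM after trametinib, 80.4, 196 and 56.9 CPM after cediranib and 58.1, 42.9 and 163 CPM after the combination. These sums overlapped between trametinib and control tumors but not between trametinib and combination tumors.

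Most of the family lies in 3 clusters of the mouse genome (GRCm38). On chromosome 1 Prelp (133910304 to 133921414, minus strand) and Fmod (134037254 to 134048277, plus strand) are separated by 116 kb. On chromosome 10 Dcn (97479609 to 97518143), Lum (97565128 to 97572703) and Kera (97606879 to 97613692) follow each other on the plus strand at distances of 47.0 and 34.2 kb. On chromosome 13 Aspn (49544443 to 49567557), Omd (49582462 to 49592822) and Ogn (49608046 to 49624501) lie on the plus strand at 14.9 and 15.2 kb, within the opposite-strand gene Cenpp, whose exons share 7 bases with Aspn and 0 with Omd and Ogn. Podn (chromosome 4, 108014791 to 108096445, minus strand) and Bgn (chromosome X, 73483602 to 73495929, plus strand) lie apart.

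Neighbors in the chromosome 1 and 13 clusters did not share their calls, and in the chromosome 10 cluster neither Dcn nor Lum was called in any comparison. In the chromosome 13 cluster Ogn was called for trametinib against control, whereas Aspn was at 0.64 (SE 0.55, edgeR FDR 0.583), Omd at 1.56 (SE 0.77, FDR 0.280) and the adjacent relative Ecm2 at 0.86 (SE 0.47, FDR 0.329). In the chromosome 1 cluster the combination tumors differed from trametinib tumors by -0.29 for Prelp and by -3.16 for Fmod. In the chromosome 10 cluster, by the same comparison, Dcn was at -0.44 (SE 0.74) and Lum at -2.61 (SE 0.77). Neighbors lay closer in other comparisons. For trametinib against control Prelp was at 2.86 and Fmod at 2.42, and Dcn at 2.13 and Lum at 1.86. For combination against trametinib Ogn was at -2.94, Aspn at -2.86 and Omd at -1.05. Over the 12 tumors Pearson's r was 0.79 for Dcn and Lum, 0.77 for Aspn and Ogn and 0.69 for Fmod and Prelp. Differences between 2 members within a cluster were not tested.

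**Figure D3:**
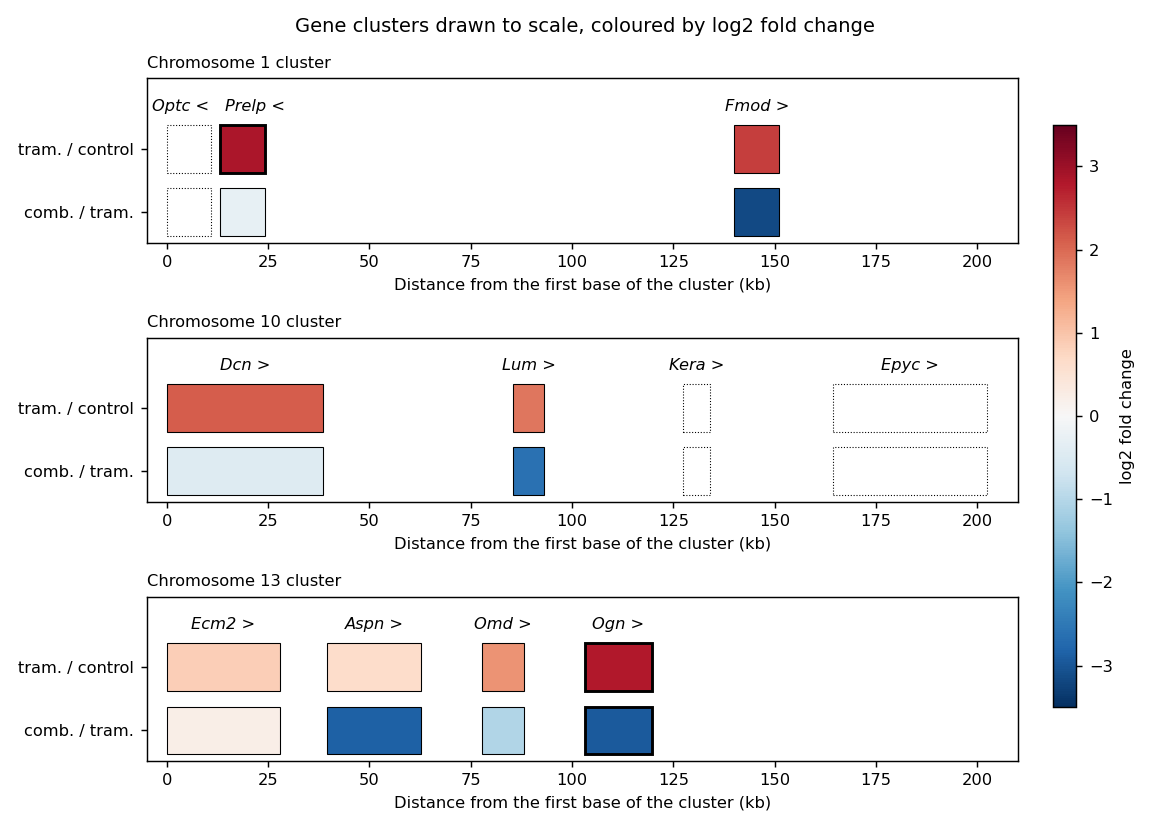
The 3 gene clusters drawn to scale as distance in kb from the first base of each, with boxes for genes, arrowheads for strand and color for the log2 fold change of trametinib against control (upper row) and combination against trametinib (lower row); thick outlines are calls and dotted boxes genes not tested. Ogn is outlined in both rows (2.80 and -2.94), and Prelp in the upper row alone (2.86).

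Over the 12 tumors the members fell into looser and tighter pairs, given here as descriptions over libraries that share their treatments. Bgn and Podn ran together (Pearson's r = 0.94, Spearman's rho = 0.96), as did Bgn and Aspn (0.90 and 0.90) and Dcn and Prelp (0.88 and 0.86). Prelp followed neither Bgn (0.22) nor Podn (0.12). Among all genes tested the pattern of Bgn was most like those of Ccdc80 (r = 0.97, rho = 0.97), Serpinf1 (0.95 and 0.93) and Acta2 (0.94 and 0.93), the last of these coding for smooth muscle actin. The pattern of Fmod was most like those of R74862 (0.94 and 0.97), Emilin1 (0.94 and 0.92), an elastic fiber protein, and Flnc (0.93 and 0.89), a filamin of muscle.

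Because fibroblasts are the main source of these proteins, a list of 16 fibroblast marker genes that holds no member was read alongside. Its summed level was 2626 to 22634 CPM in control tumors, 9458 to 39352 CPM after trametinib, 2162 to 7603 CPM after cediranib and 4090 to 6519 CPM after the combination, with trametinib tumors above all cediranib and combination tumors. Of the 12 markers tested 1 was called higher after trametinib (Fbln1, a matrix protein of fibroblasts, 1.61, SE 0.41, edgeR FDR 0.0375) and 0 lower. The sum is made up mostly of Col1a1, with 906355 counts over all tumors against 152960 for Col1a2, the next gene. The markers split in direction in the combination, where against control 5 of 12 had estimates above 0 and 7 below (median -0.66). Fbln1 was called higher there (1.59, SE 0.41, FDR 0.0304) and Pdgfrb, a receptor of mesenchymal cells, lower (-1.67, SE 0.44, FDR 0.0351). Pdgfra, another such receptor, was not called, at 14.7 ± 2.72 CPM in control and 24.5 ± 4.34 CPM after the combination (FDR 0.0999). The ratios that follow therefore depend on the markers summed. Per 1000 CPM of these markers Prelp was at 0.146 to 0.324 CPM in control, 0.293 to 1.64 after trametinib, 0.181 to 0.523 after cediranib and 1.53 to 2.79 after the combination. On this scale the combination tumors remained apart from control and cediranib tumors, whereas trametinib and control tumors overlapped. Ogn was at 0.319 to 0.520 per 1000 CPM of markers after trametinib and at 0.0625 to 0.260 in control, which did not overlap. It was at 0.0871 to 0.354 after cediranib, which overlapped with trametinib on this scale, and at 0.130 to 0.248 after the combination. Bgn was at 10.9 to 15.2 after trametinib against 16.3 to 27.0 in control.

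With a fibroblast marker score as a covariate, added after the data were seen, Ogn (2.31, FDR 0.0190) and Prelp (2.21, FDR 0.0334) were still called by edgeR for trametinib against control, and Prelp (3.18, FDR 0.00407) and Aspn (-1.68, FDR 0.0162) for combination against control. The call of Ogn for combination against trametinib was lost (-2.25, FDR 0.235), as were those of all 87 genes of that comparison. Bgn turned from 0.57 to -0.60 for trametinib against control in this fit and was not called in either.

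**Figure D4:**
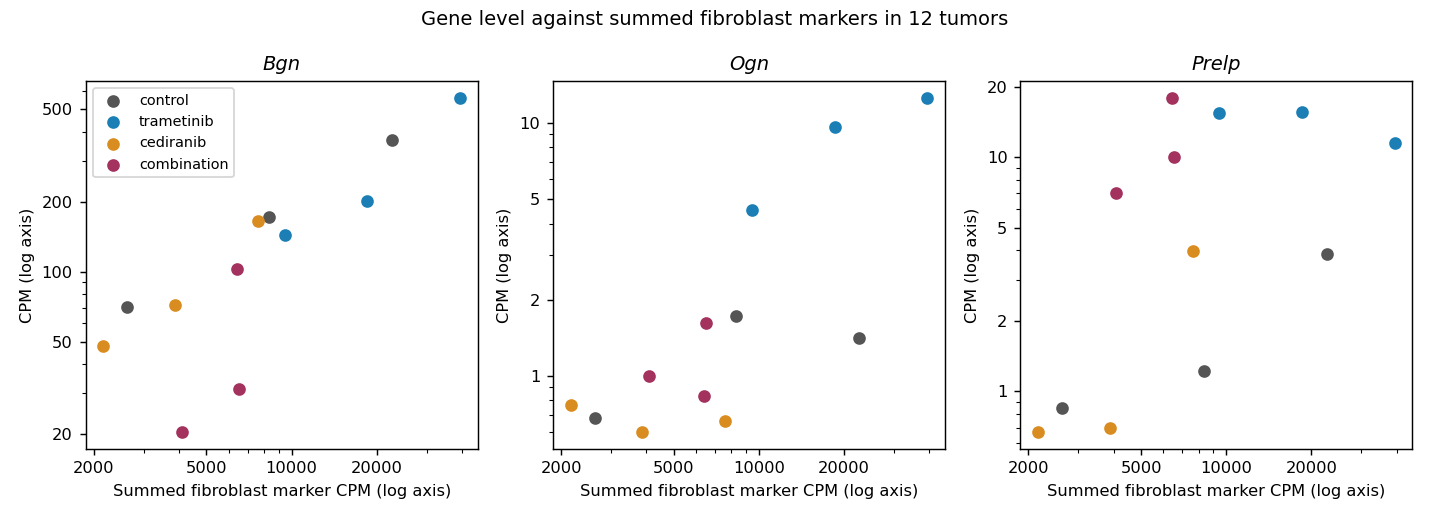
Level of Bgn, Prelp and Ogn (CPM, log axis) against the summed level of 16 fibroblast markers (CPM, log axis) in each of the 12 tumors, colored by treatment. For Bgn the points run from the lower left to the upper right with the combination tumors at the low edge, while the Prelp values of combination tumors (6.99 to 17.9 CPM) lie above those of control and cediranib tumors (0.670 to 3.97 CPM).

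The tumors did hold RNA of endothelium, the cell type of the SVR line, with 12 of its markers detected and a summed level of 80.3 to 520 CPM over the 12 tumors. Of 11 tested, 4 were called lower after trametinib, among them Pecam1 (-2.38, SE 0.47, edgeR FDR 0.0111), and 5 lower after the combination than in control.

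Other tissues in the lysates also differed between tumors, and some of them between groups. The summed level of 16 epidermis markers was 10.1 to 17.5 CPM in trametinib tumors and 2946 to 4468 CPM in combination tumors, with control tumors between 26.4 and 628 CPM and cediranib tumors between 47.9 and 2871 CPM. Of 10 skeletal muscle markers tested 0 were called in any comparison, but control 2 (17445 CPM) and trametinib 2 (24711 CPM) held far more muscle RNA than the other 10 tumors (11.1 to 2124 CPM). Trametinib 2 was also the highest tumor for Bgn, Fmod, Aspn, Ogn and Omd. Without these 2 tumors, a choice made after seeing the data, Ogn was still called by edgeR for trametinib against control (2.76, FDR 0.0281), while Prelp (2.74, FDR 0.138), the combination calls against control of Prelp (2.33, FDR 0.124) and Aspn (-2.07, FDR 0.0988) and Ogn for combination against trametinib (-2.61, FDR 0.0791) were lost. Prelp was still called for combination against cediranib (FDR 0.0497). Macrophage markers summed to 401 to 699 CPM in control, 315 to 438 CPM after trametinib, 293 to 451 CPM after cediranib and 178 to 315 CPM after the combination. All 10 of them had estimates below 0 for the combination against control, where 2 were called (Cd68, -1.59, and Fcgr1, -2.81), and against trametinib, where Cd68 was called (-1.60). Of 8 pericyte and smooth muscle markers tested 3 were called lower and 1 higher (Notch3, 1.92) for combination against control, and their sum was 95.8 to 466 CPM in control and 90.2 to 247 CPM after the combination. Of 4 adipocyte markers 0 were called in any comparison. The part of these cell types in the members' differences was not tested.

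As Ogn, Omd, Prelp, Fmod and Lum are known from tendon and skeleton, markers of these tissues were read as well. Of 12 listed, 5 were at or near 0, with 0 counts over all tumors for Bglap, 2 for Mkx, 8 for Acan, 10 for Ibsp and 18 for Tnmd. Others were well detected, with 10239 counts for Sox9, 4487 for Spp1, 3019 for Scx and 1166 for Thbs4, and the summed level of the list was 76.5 to 253 CPM over the 12 tumors. Of 7 such markers tested 1 was called, namely Scx, the tendon transcription factor scleraxis. Scx rose from 8.74 ± 6.44 CPM in control to 66.7 ± 35.0 CPM after trametinib (mean ± SD, n = 3, log2 fold change 2.93, SE 0.47, edgeR FDR 0.00348). It was at 14.7 ± 1.96 CPM after the combination (-2.18 against trametinib, SE 0.45, FDR 0.0466). These calls had the same direction as those of Ogn, but the list as a whole did not rise after trametinib. Against control 3 of the 7 markers tested had estimates above 0 and 4 below, with a median of -0.18. For combination against trametinib 1 was above 0 and 6 were below, with a median of -0.67.

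Of the 8 other genes of the wider family 3 were tested and 0 were called in any comparison, namely Chadl, Ecm2 and Tsku. For trametinib against control Chadl was at 0.51 (SE 0.25), Ecm2 at 0.86 (SE 0.47) and Tsku at 0.53 (SE 0.68). Chad, Podnl1 and Nyx had 18, 16 and 2 counts over all tumors, and Epyc and Optc, which lie in the chromosome 10 and chromosome 1 clusters, had 0.

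The proteins that these proteoglycans act on showed few calls. Of 10 fibril collagen genes 0 were called after trametinib (median 0.03), and Col5a2, a chain that starts thin fibrils, was called lower after the combination than in control (-2.82, SE 0.73, edgeR FDR 0.0318). Between combination and trametinib Col1a1 and Col1a2, the chains of collagen I, were at -2.39 (SE 0.84, FDR 0.171) and -2.90 (SE 0.76, FDR 0.0813), not called. Of 11 genes of the fibril surface and collagen VI 1 was higher after trametinib (Matn2, matrilin 2, 1.93, SE 0.40, FDR 0.0140), and 1 was lower after the combination than in control (Thbs2, thrombospondin 2, -2.35, SE 0.63, FDR 0.0365). For combination against trametinib 0 genes of either list were called.

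Of 21 genes that build the sulfated chains carried by these proteins 3 were called for trametinib against control. Ust, which sulfates uronic acid in chondroitin and dermatan sulfate, was higher (2.20, SE 0.42, edgeR FDR 0.00921). Csgalnact1, which starts the chondroitin chain, was lower (-2.23, SE 0.43, FDR 0.00991), as was Chst15, a chondroitin sulfotransferase (-2.07, SE 0.48, FDR 0.0260). Ust (1.56, SE 0.42, FDR 0.0376) and Csgalnact1 (-2.32, SE 0.43, FDR 0.00846) were also called for combination against control, and both were called in the same directions for combination against cediranib. In that comparison Chst2, a sulfotransferase of keratan sulfate, was lower too (-3.18, SE 0.88, FDR 0.0486).

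Of 15 genes for processing and cleavage 0 were called after trametinib and 2 were lower after the combination than in control, namely Lox, the crosslinking lysyl oxidase (edgeR FDR 0.0376, at 59.6 ± 56.1 CPM in control and 5.22 ± 1.32 CPM after the combination), and Adamts4, a protease of proteoglycans (-1.51, SE 0.31, FDR 0.0120). Of 20 receptors and growth factors bound by the family 0 were called after trametinib. After the combination Lrp1, an endocytic receptor of decorin, was higher than in control (1.58, SE 0.23, FDR 0.00307), and Kdr, the VEGF receptor that decorin can bind (-2.24, SE 0.56, FDR 0.0287), and Ctgf, a matricellular growth factor (-3.42, SE 0.87, FDR 0.0296), were lower. As a check of the drug, 9 of 16 genes of MAPK output were called lower and 0 higher after trametinib, among them Egr1 (-4.49, SE 0.23, FDR 2.15e-06), and 9 were lower after the combination than in control. Between combination and trametinib all 16 were higher in the combination (median 0.90), and 2 were called, Dusp6 (1.79, SE 0.24, FDR 0.0196) and Etv5 (1.58, SE 0.27, FDR 0.0269). The summed level of the list was 678 to 946 CPM after the combination, 405 to 554 CPM after trametinib and 1383 to 1580 CPM in control and cediranib tumors. For cediranib against control 0 genes of these lists were called.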

How the data were processed

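RNA sequencing counts of 12 SVR tumors were analyzed, 3 per treatment, each assigned from its title and treatment label. Per the labels, the libraries were TruSeq RNA Exome, and the deposited table held raw counts that had not been normalized. The submitters' processing notes name bcl2fastq 1.8.4, STAR 2.7.1a, featureCounts 1.6.0 and GRCm38. The annotation release, strand setting and handling of multiply mapped reads were not given in the sources used here. Nothing in the labels ties tumors to separate mice, so p-values measure the spread between these tumors. Columns left without a sample numbered 0, and 0 pairs of libraries were identical.

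Counts were normalized by TMM (factors 0.908 to 1.10), filtered with filterByExpr (minimum count 10, minimum total 15) and fitted with edgeR 4.0.16 (R 4.3.3, limma 3.58.1) in 1 quasi-likelihood model of all 12 tumors. FDRs were adjusted by Benjamini-Hochberg over 12897 genes tested. SE was computed as the size of the log2 fold change over the root of F. Log2 CPM for correlations used a prior count of 2. The biological coefficient of variation was 27.2%. Intervals for a count of 0 cover counting error only. DESeq2 1.42.0 and other settings were alternatives. Genes and promoters came from the deposited coordinates, GENCODE M21 and RefSeq.

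All 10 members are given with their levels, Kera as 0 counts, and fold changes are printed for a part of them in each comparison. Beyond them, the text names the 3 genes most correlated with each tested member with a mean of at least 10 CPM. Where it names genes of a further list, these are up to 2 called genes per direction by p, or the 2 most abundant where 0 were called. Pdgfra, the overlapping genes, the 8 other genes of the wider family and markers given with total counts are named beyond this rule. The members, lists and tests were chosen with earlier results of these data known.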

Additional observations from a re-analysis of the deposited data

How the results depend on the processing

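For the pairs trametinib/control, cediranib/control, combination/control, combination/trametinib, combination/cediranib and the interaction, 2, 0, 2, 1, 1 and 0 members were called. Without the low-count filter these were 5, 2, 5, 6 and 2 for the first 5. Calls over all genes rose there too, from 310, 0, 466, 87 and 316 to 687, 324, 1129, 773 and 637. DESeq2 called 1 (cediranib/control), 5 (combination/trametinib) and 2 (combination/cediranib), beside 10, 347 and 397 of all genes. For combination/trametinib the likelihood ratio test called 5 (401 of all genes), library totals alone 2 (115) and the fit of only the groups compared 3 (274). The last called 1 (500 of all genes) for combination/control and 0 (288) for combination/cediranib. Without the 2 muscle-rich tumors 1 (trametinib/control), 0 (combination/control) and 0 (combination/trametinib) were called, beside 185, 258 and 0 of all genes. With the fibroblast score as covariate 0 were called for combination/trametinib and 2 (Podn lower, Prelp higher) for combination/cediranib, beside 0 and 494 of all genes. Leaving out single tumors gave 1 to 2, 0 to 0, 0 to 1, 0 to 1, 0 to 1 and 0 to 0. The cause of these shifts was not tested. With 3 tumors a group and under 1 CPM in many tumors, Lum, Omd and Ogn rest on few counts.

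Replicate numbers do not pair the tumors: same-numbered tumors had a median correlation of deviations of -0.008, and 3 of 12 correlated best with their own number. With the replicate block 3 members (Fmod added, 2.28, FDR 0.0438) were called for trametinib/control and 0 for combination/cediranib (Prelp 2.64, FDR 0.0529). Of all genes 301 and 277 were called there. In the same fit cediranib/control turned to 0.040 for Dcn and 0.11 for Omd.

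Of 531 log2 fold changes of members under alternatives that kept every tumor or left out the muscle-rich pair, 473 kept direction and call, 30 gained a call, 8 lost it and 20 changed sign. Without the muscle-rich pair, Bgn turned to -0.35 (trametinib/control), Omd to 0.71 (cediranib/control) and Ogn to 0.14 (combination/control). With the fibroblast score, trametinib/control turned to -0.60 for Bgn and -0.31 for Aspn, cediranib/control to 0.45 for Dcn, 0.14 for Bgn, 0.85 for Prelp and 0.44 for Podn, and combination/control to 0.062 for Ogn. Combination/trametinib turned to 0.32 for Dcn and 0.98 for Prelp, combination/cediranib to -0.44 for Aspn and the interaction to 0.13 for Prelp. The interaction of Dcn (-0.03) turned to 0.0021 with median-ratio factors, 0.066 with library totals, 0.0043 without the filter and 0.020 with DESeq2.

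Leaving out single tumors changed signs among values not called. For trametinib/control the ranges were -0.24 to 1.32 for Bgn and -0.53 to 0.72 for Podn. For cediranib/control they were -0.86 to 0.67 for Dcn, -1.49 to 0.80 for Prelp, -0.60 to 0.71 for Omd and -1.55 to 0.22 for Podn. For combination/control they were -1.62 to 0.51 for Lum and -0.45 to 0.14 for Ogn, for combination/trametinib -1.64 to 0.20 for Dcn and for combination/cediranib -0.40 to 0.59 for Aspn. The interaction ran from -1.21 to 0.62 for Dcn, -1.98 to 0.74 for Fmod and -1.08 to 1.20 for Prelp.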
